A study of Sus scrofa with 6 samples.

Results

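The BAF complex, the mammalian SWI/SNF chromatin remodeller, was described here through 10 of its core subunit genes: SMARCA2, SMARCA4, SMARCB1, SMARCC1, SMARCC2, SMARCD1, SMARCD2, SMARCD3, ARID1A and ARID1B. The members were the rows whose pig gene identifier carries one of these symbols, and 8 of the 10 were found among 20131 genes; SMARCA2 and SMARCD2 were not analysed here. RNA-seq of rRNA-depleted total RNA, with strand-specific libraries, compared 2 kinds of pig cells. The pgEpiSC are stem cells of the pre-gastrulation epiblast, derived at embryonic day 10 from the embryo's epiblast, with 4 libraries described as biological replicates. The pEF are porcine embryonic fibroblasts from fetuses at embryonic day 30, with 2 libraries described in the same way. No treatment or altered gene is given for either group. The labels do not tie a library to a line, an embryo or a fetus, so the p-values measure the spread between these samples, which may be partly technical.

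BAF complexes use the energy of ATP to slide or evict nucleosomes, and so open or close regulatory DNA. A complex holds 1 ATPase, SMARCA4 (also called BRG1) or SMARCA2 (BRM), on a scaffold of SMARCC1 (BAF155) and SMARCC2 (BAF170) with SMARCB1 (BAF47) and a SMARCD protein (BAF60). A large ARID protein, ARID1A or ARID1B, marks the canonical complex, while ARID2 with PBRM1 marks PBAF and BRD9 marks the non-canonical complex. Cells draw 1 paralog for several of these positions, and the form of the complex known from mouse embryonic stem cells is rich in SMARCA4, SMARCC1 and ARID1A.

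Levels are in TPM, a unit per transcript length, so that genes can be set side by side. Sums over the listed genes ran from 157288 to 320206 TPM for pgEpiSC and were 93556 and 145611 TPM for pEF. A full set of TPM sums to 1000000 per library, so most of each total is not in the listed genes. That unlisted part differs between libraries, and what it holds was not analysed. From 7146 to 10250 genes reached 1 TPM per library. Depth per library is unknown here because TPM keeps none. The pgEpiSC libraries carried the epiblast markers: all 8 in the table passed the test as higher, with LIN28A, DNMT3B and LEFTY2 the most abundant, and summed to 519 to 2044 TPM against 0.134 and 0.685 TPM in pEF, where LIN28A was listed at 0. Of 12 fibroblast markers, 11 were lower in pgEpiSC, with COL1A2, COL3A1 and COL5A2 the most abundant in pEF, and the list summed to 869 and 1883 TPM in pEF against 5.44 to 24.7 TPM. The exception was TWIST2, a mesenchymal transcription factor that did not pass the test. The epiblast markers POU5F1 and SOX2 were not analysed here. Endothelial and blood markers did not exceed 1.01 TPM in any library. Neural markers summed to 8.05 to 40.7 TPM in pgEpiSC and to 7.27 and 41.5 TPM in pEF, with ELAVL3 called higher and STMN2 called lower in pgEpiSC among 4 tested. Hypoblast and trophectoderm markers summed to 2.05 to 7.02 TPM and to 0.427 and 0.819 TPM, with FOXA2 called higher among 2 tested. The part of such cells in the results was not tested. Libraries pgEpiSC 1 and 4 were closer to each other (r = 0.990 over tested genes on the log2(TPM + 1) scale) than any other pair of pgEpiSC libraries (0.935 to 0.963), and TPM gives no test of sampling noise. Averaging them as 1 sample, an alternative added after seeing the data, ended the scaled calls of ARID1B (limma, adjusted p = 0.0912) and ARID2 (0.0838) and the call of ACTB as deposited (0.106), and no other call of a BAF subunit on either scale.

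Since the library sums differ, differences of the BAF subunits are given on 2 scales. These are TPM as deposited, the primary scale, and TPM after median-ratio scaling. The latter divides each library by the median ratio of its genes to their geometric mean over libraries. The median log2 difference of all 10424 tested genes, pgEpiSC minus pEF, was 0.48 as deposited and 0.02 after scaling. The share of 2 genes within a library does not depend on this choice, and their log2 ratio depends on it only through the 0.1 TPM added to each gene. All 8 members found passed the filter of at least 1 TPM in at least 2 libraries.

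At 3 positions the paralog balance of the pgEpiSC libraries did not overlap with that of the pEF libraries. SMARCC1 outweighed SMARCC2 by far in pgEpiSC, while in pEF the pair was nearly even. SMARCD1 held from 49.1 to 64.3% of its pair with SMARCD3 in pgEpiSC, while SMARCD3 held most of the pair in pEF. ARID1A was ahead of ARID1B in pgEpiSC and behind it in pEF. These were the only 3 of the 6 paralog pairs planned among the members that could be computed. The other 3 need SMARCA2 or SMARCD2. Single genes were often apart too: 49.5% of all tested genes did not overlap between the groups as deposited, and 70.5% after scaling. Among the 7 other subunit pairs computed, the log2 ratios, with 0.1 TPM added to each gene, did not overlap for 4. How many gene pairs at large do not overlap was not computed.

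**Figure D1:**
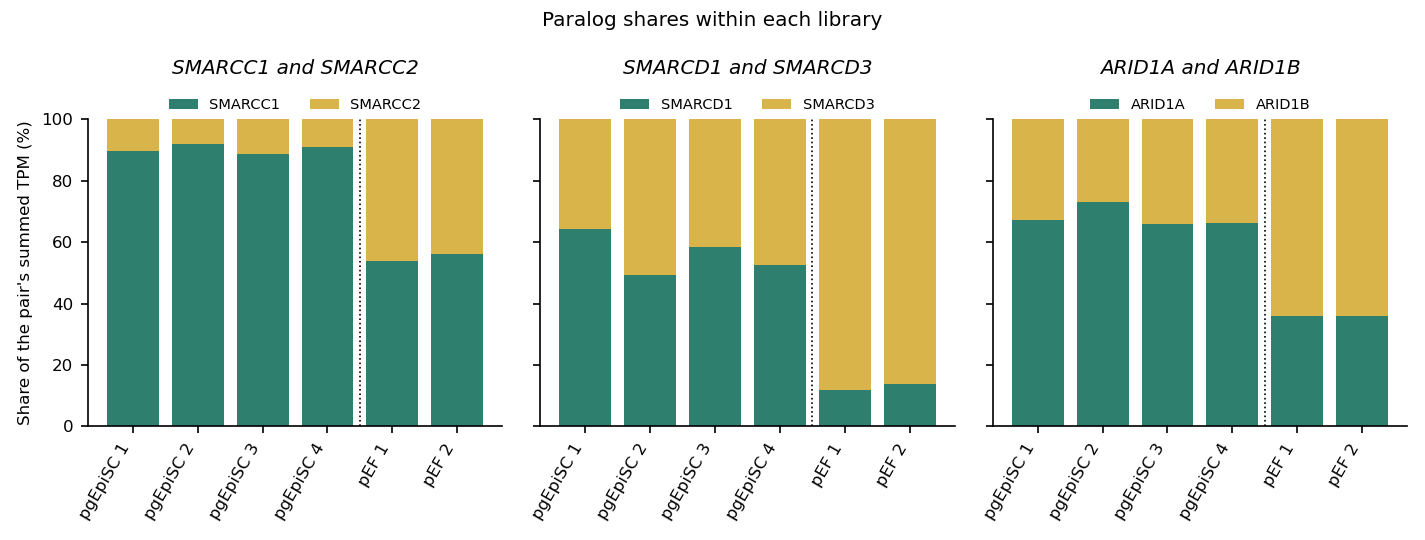
Share (%) of the summed TPM of each paralog pair held by either gene in each library; bars are single libraries, and the dotted line parts the 4 pgEpiSC libraries from the 2 pEF libraries. The SMARCC1 share lies between 88.8 and 91.9% in pgEpiSC and at 54.0 and 56.3% in pEF, and the SMARCD1 and ARID1A shares also do not overlap between the groups.

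SMARCC1 and SMARCC2 are the scaffold proteins on which the complex is built. SMARCC1 was at 8.83, 27.2, 17.4 and 9.05 TPM in pgEpiSC libraries 1 to 4 and at 2.91 and 5.46 TPM in pEF libraries 1 and 2. The lowest pgEpiSC library thus lay above the higher pEF library. SMARCC2 was at 1.01, 2.39, 2.19 and 0.897 TPM in pgEpiSC, with 2.48 and 4.24 TPM in pEF, again without overlap and in the opposite direction. The SMARCC1 share of the pair was 89.8, 91.9, 88.8 and 91.0% in pgEpiSC, 90.4 ± 1.37% (SD, n = 4), and 54.0 and 56.3% in pEF, 55.2 ± 1.61% (SD, n = 2). The log2 ratio of SMARCC1 to SMARCC2, with 0.1 TPM added to each, was 3.15 ± 0.23 in pgEpiSC and 0.29 ± 0.09 in pEF, a difference of 2.86 or 7.26-fold (exact two-sided permutation p = 0.0667, adjusted over the 3 pairs p = 0.0667). With 15 ways to split the 6 libraries, 0.0667 is the smallest p this design can give, so no ratio here could pass 0.05. SMARCC1 was the single member called as deposited: its log2 difference was 1.58 ± 0.55 (SE; limma, adjusted p = 0.028), and 1.03 ± 0.18 after scaling (adjusted p = 0.00184). The call as deposited was lost without pgEpiSC 3 (adjusted p = 0.0959), pEF 1 (0.43) or pEF 2 (0.0839), while after scaling it was kept in all 6 fits that left out 1 library. SMARCC2 had a log2 difference of -0.75 ± 0.53 as deposited (limma, adjusted p = 0.299) and fell by 1.25 ± 0.13 after scaling (adjusted p = 0.000122), a call kept in all 6 such fits. Bulk RNA does not tell fewer cells expressing a gene from less RNA per cell.

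SMARCD proteins link the complex to transcription factors, and SMARCD3 (BAF60C) is best known from heart and skeletal muscle development. SMARCD1 was at 2.29, 9.83, 4.09 and 1.75 TPM in pgEpiSC, with 0.731 and 1.61 TPM in pEF. SMARCD3 was at 1.27, 10.2, 2.90 and 1.58 TPM in pgEpiSC, with 5.51 and 10.1 TPM in pEF, so pgEpiSC 2 reached the level of pEF 2 and the groups overlapped. Within libraries they did not. The SMARCD1 share of the pair was 64.3, 49.1, 58.5 and 52.5% in pgEpiSC, 56.1 ± 6.68% (SD, n = 4), against 11.7 and 13.7% in pEF, 12.7 ± 1.39% (SD, n = 2). The log2 ratio of SMARCD1 to SMARCD3 was 0.34 ± 0.38 in pgEpiSC and -2.67 ± 0.12 in pEF, a difference of 3.01 or 8.07-fold (exact permutation p = 0.0667). After scaling, SMARCD3 stood at 1.82, 4.73, 1.80 and 2.19 TPM against 9.68 and 10.7 TPM, and its log2 difference went from -1.09 ± 0.60 as deposited (limma, adjusted p = 0.175) to -1.69 ± 0.30 (adjusted p = 0.00168). Leaving out pgEpiSC 2 gave a call as deposited too, at -1.58 (limma, adjusted p = 0.00797). SMARCD1 had a log2 difference of 1.15 ± 0.58 as deposited (limma, adjusted p = 0.135) and rose by 0.73 ± 0.22 after scaling (adjusted p = 0.0206). That call was lost without pEF 1, at 0.58 (adjusted p = 0.153).

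Of 8 striated muscle markers, only DES passed the filter, and it was called lower in pgEpiSC. The list summed to 1.11 to 2.65 TPM in pgEpiSC and to 24.9 and 212 TPM in pEF 1 and pEF 2, nearly all of it DES, the muscle intermediate filament desmin, at 24.5 and 204 TPM. MYF5, a myogenic regulator, was at 0.234 and 3.06 TPM in the pEF libraries and TNNT2, a troponin, at 0.0677 and 1.80 TPM. The other 5 (MYOD1, MYOG, PAX7, MYH3 and TNNI1) reached at most 0.241 TPM in pgEpiSC and 1.35 TPM in pEF, and MYOD1 was listed at 0 in pEF 1. SMARCD3 was 1.84 times as high in pEF 2 as in pEF 1 as deposited, the scale of these markers, and 1.11 times after scaling. The part of muscle-lineage cells in the SMARCD3 level was not tested.

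ARID1A and ARID1B are large DNA-binding subunits that exclude each other from a complex. ARID1A was at 1.70, 7.35, 4.62 and 1.31 TPM in pgEpiSC, with 0.522 and 1.31 TPM in pEF, so that pgEpiSC 4 and pEF 2 met. ARID1B was at 0.831, 2.69, 2.40 and 0.667 TPM in pgEpiSC, with 0.925 and 2.34 TPM in pEF, with full overlap. The ARID1A share of the pair was nevertheless 67.2, 73.2, 65.8 and 66.3% in pgEpiSC, 68.1 ± 3.44% (SD, n = 4), and 36.1 and 35.9% in pEF, 36.0 ± 0.163% (SD, n = 2). The log2 ratio of ARID1A to ARID1B was 1.04 ± 0.25 in pgEpiSC and -0.76 ± 0.05 in pEF, a difference of 1.80 or 3.48-fold (exact permutation p = 0.0667). ARID1A had a log2 difference of 1.14 ± 0.57 as deposited (limma, adjusted p = 0.129) and rose by 0.74 ± 0.20 after scaling (adjusted p = 0.0135), a call lost without pEF 1, at 0.57 (adjusted p = 0.126). ARID1B had a log2 difference of -0.03 ± 0.50 as deposited (limma, adjusted p = 0.973) and of -0.46 ± 0.17 after scaling (adjusted p = 0.0455). The latter call was lost without pgEpiSC 1, 2 or 4 or pEF 2, with adjusted p-values from 0.0618 to 0.295.

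SMARCA4, the ATPase, was at 7.21, 37.8, 16.5 and 6.53 TPM in pgEpiSC, with 3.24 and 8.17 TPM in pEF. The groups overlapped, as pEF 2 lay above pgEpiSC 1 and 4. Its log2 difference was 1.20 ± 0.58 as deposited (limma, adjusted p = 0.122) and 0.63 ± 0.29 after scaling (adjusted p = 0.10), so it passed the test on neither scale. Without pgEpiSC 1 it passed as deposited, at 1.47 (adjusted p = 0.0478). After scaling SMARCA4 stood at 10.3, 17.6, 10.2 and 9.05 TPM in pgEpiSC, with 5.69 and 8.65 TPM in pEF, where the groups parted by a narrow gap. The paralog choice at the ATPase position could not be described without SMARCA2. Of 8916 other tested genes with a symbol, TRAPPC10 (r = 0.999), ZNF446 (0.996) and DRG2 (0.993) had the pattern most like that of SMARCA4 on the scaled log2 scale. This is a description over 6 libraries that share their scaling, and 322 genes reached an r of at least 0.9.

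SMARCB1, the subunit that binds the nucleosome's acidic patch and has no paralog, was at 2.58, 9.74, 5.71 and 2.72 TPM in pgEpiSC, with 1.59 and 3.25 TPM in pEF. Its log2 difference was 0.75 ± 0.58 as deposited (limma, adjusted p = 0.346) and 0.25 ± 0.16 after scaling (adjusted p = 0.215). After scaling its levels were 3.70, 4.53, 3.54 and 3.78 TPM against 2.79 and 3.44 TPM, the smallest scaled log2 difference in size among the 8 members.

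**Figure D2:**
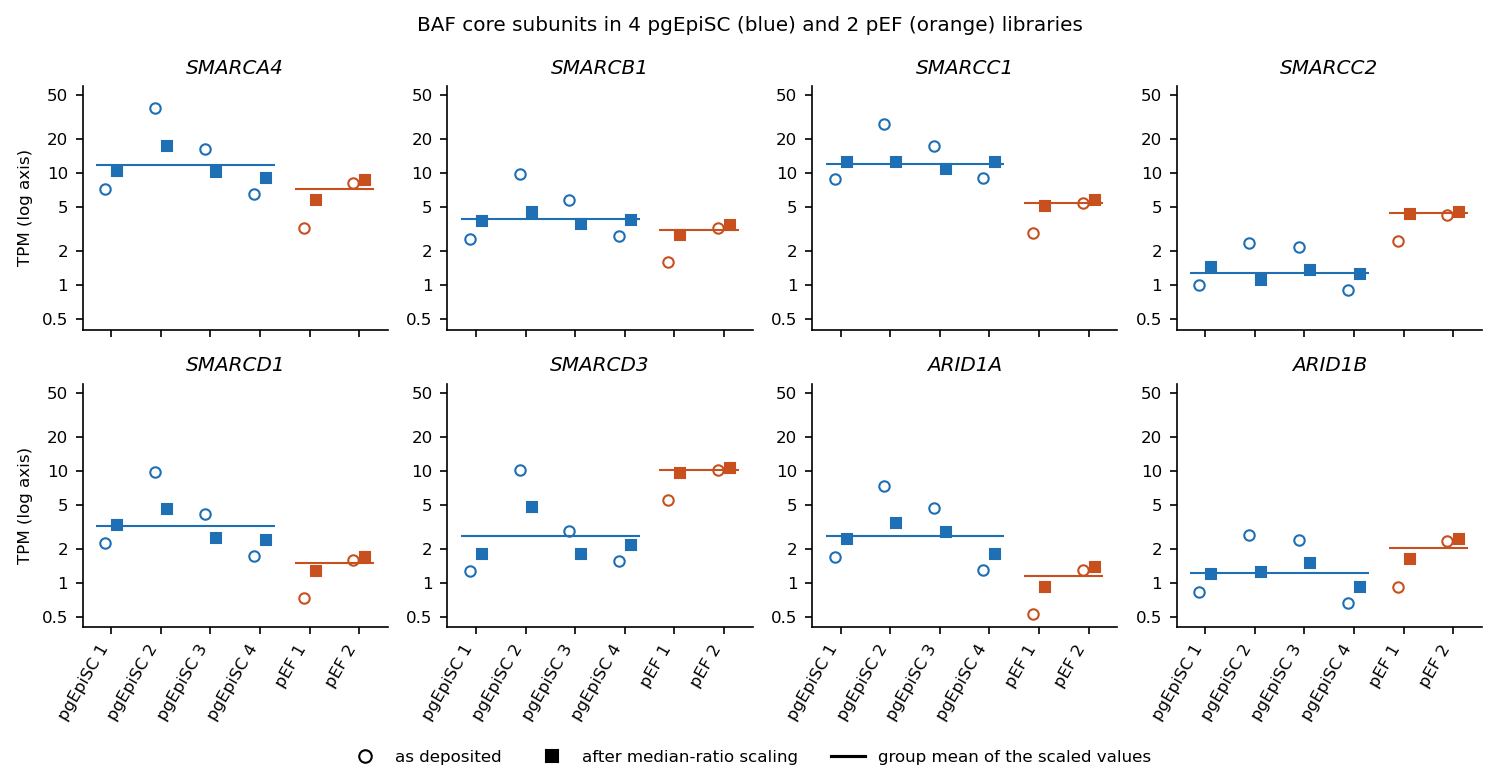
TPM (log axis) of the 8 members in each library; open circles are values as deposited, filled squares are values after median-ratio scaling, and lines are group means of the scaled values. SMARCC2, SMARCD3 and ARID1B lie higher in pEF (orange) than in pgEpiSC (blue) after scaling, and the other 5 lie lower, with SMARCB1 and SMARCA4 the closest.

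Counted over the members, 1 of 8 was called higher and 0 lower as deposited by limma (2 higher and 0 lower at an unadjusted p under 0.05). The background was 18.0% of all tested genes called higher and 9.43% called lower. After scaling 3 of 8 were called higher (SMARCC1, SMARCD1, ARID1A) and 3 lower (SMARCC2, SMARCD3, ARID1B), against 27.0 and 30.9% of all genes. As groups of libraries, pgEpiSC and pEF did not overlap for 3 of 8 members as deposited (SMARCC1, SMARCC2, SMARCD1), where 49.5% of all genes did not overlap, and for 8 of 8 after scaling, where 70.5% did not. The median log2 difference of the members was 0.94 against 0.48 for all genes as deposited, and 0.44 against 0.02 after scaling. At each of the 3 positions with a computed pair, 1 paralog was called higher and the other lower after scaling. Within pgEpiSC the highest level of a member was 2.66 (SMARCC2) to 8.01 (SMARCD3) times its lowest as deposited, and 1.17 (SMARCC1) to 2.63 times (SMARCD3) after scaling.

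The order of the members by level was not the same in the 2 cell types. In pgEpiSC the order by geometric mean TPM was SMARCC1 (13.9), SMARCA4 (13.1), SMARCB1 (4.44), SMARCD1 (3.56), ARID1A (2.95), SMARCD3 (2.77), SMARCC2 (1.48) and ARID1B (1.38). SMARCC1 was above SMARCA4, SMARCB1 above SMARCD1 and SMARCD1 above ARID1A in 3 of 4 libraries each. ARID1A was above SMARCD3 in 2 of 4 and SMARCC2 above ARID1B in 2 of 4. The order of these neighbours thus varied between libraries, and no test of it was made. SMARCA4 was above SMARCB1, and SMARCD3 above SMARCC2, in 4 of 4. In pEF SMARCD3 (7.47) came first, followed by SMARCA4 (5.15), SMARCC1 (3.99), SMARCC2 (3.24), SMARCB1 (2.27), ARID1B (1.47), SMARCD1 (1.08) and ARID1A (0.828), and each step held in 2 of 2 libraries. By geometric mean SMARCD3 was thus at rank 6 of 8 in pgEpiSC and at rank 1 in pEF. Its place varied within pgEpiSC: in library 2, at 10.2 TPM, it lay above SMARCD1 (9.83 TPM) and SMARCB1 (9.74 TPM). In percentiles among all genes of a library, SMARCD3 stood at 67.1 to 82.1 in pgEpiSC and at 88.2 and 89.8 in pEF, and SMARCC1 at 91.2 to 92.9 and at 80.0 and 82.2.

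To set the other subunits against one that has no paralog, each was divided by SMARCB1 in the same library, a measure chosen after seeing the data. For each TPM of SMARCB1, SMARCC1 was at 3.15 ± 0.284 in pgEpiSC (SD, n = 4) and 1.76 ± 0.108 in pEF (SD, n = 2), and SMARCC2 at 0.337 ± 0.0674 and 1.43 ± 0.181. Their sum was 3.49 ± 0.336 and 3.19 ± 0.288, with overlapping groups (exact permutation p = 0.333). ARID1A was at 0.677 ± 0.144 and 0.366 ± 0.0529 and ARID1B at 0.316 ± 0.0767 and 0.652 ± 0.0988. Their sum was 0.993 ± 0.208 and 1.02 ± 0.152, and the groups overlapped (exact permutation p = 0.933). An overlap in so few libraries does not show that the totals are equal. At the SMARCD position, SMARCD1 was at 0.814 ± 0.167 and 0.477 ± 0.0241 and SMARCD3 at 0.657 ± 0.262 and 3.29 ± 0.247. Their sum was 1.38, 2.06, 1.23 and 1.22 in pgEpiSC and 3.93 and 3.61 in pEF, or 2.56 times as much in pEF (exact permutation p = 0.0667). SMARCD2, which may fill the same position, is not part of that sum. SMARCA4 was at 2.99 ± 0.633 and 2.28 ± 0.336 for each TPM of SMARCB1, with overlap.

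**Figure D3:**
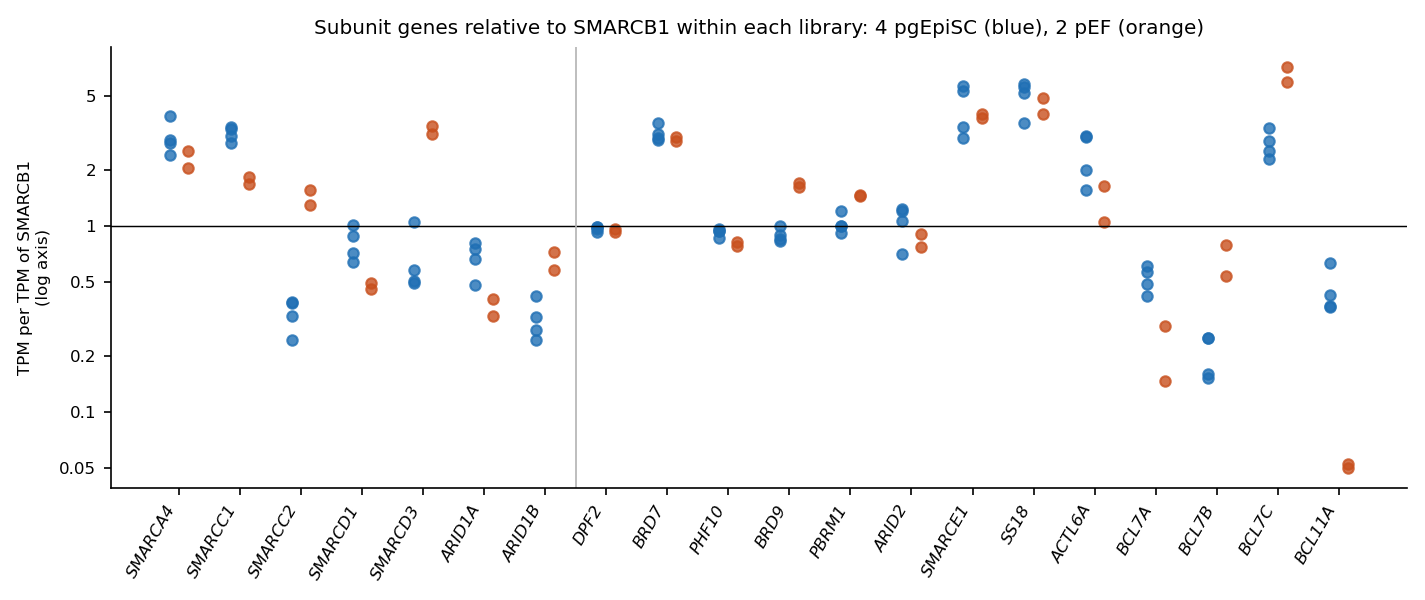
TPM of each subunit gene divided by the TPM of SMARCB1 in the same library (log axis); points are single libraries, 4 pgEpiSC in blue and 2 pEF in orange, with members left of the grey line and other subunits right of it. SMARCC2, SMARCD3 and ARID1B lie higher in pEF and their paralogs lower, while DPF2 stays between 0.929 and 0.992 in all 6 libraries.

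The remaining subunits of BAF, PBAF and the non-canonical complex were taken as a list of 21 genes. Of these 20 were in the table and 15 passed the filter, while DPF1, DPF3, BCL11B, BICRA and BICRAL did not. BCL7A, BCL11A and SS18L1 lay under 1 TPM in both pEF libraries and passed only through pgEpiSC libraries. Their higher calls are therefore not independent of the filter. As deposited, 2 of the 15 were called higher, 1 lower and 12 not, and after scaling 5 higher, 3 lower and 7 not, with a median log2 difference of 0.88 and 0.39 on the 2 scales (0.48 and 0.02 for all genes). Of all tested genes, 18.0% were called higher and 9.43% lower as deposited, and 27.0 and 30.9% after scaling. Groups did not overlap for 7 of 15 as deposited and for 11 of 15 after scaling, near the 49.5 and 70.5% of all genes.

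ACTL6A (BAF53A), the actin-related subunit of proliferating cells, was at 7.89, 15.2, 11.4 and 8.23 TPM in pgEpiSC, with 2.6 and 3.41 TPM in pEF. It rose by 1.51 ± 0.54 on the log2 scale as deposited (limma, adjusted p = 0.0325) and by 0.98 ± 0.25 after scaling (adjusted p = 0.011). As deposited the call was lost without pgEpiSC 3, pEF 1 or pEF 2 (adjusted p from 0.113 to 0.38), and after scaling without pEF 2 (0.101). BCL11A, a zinc-finger protein of the complex, was at 0.943, 3.61, 3.63 and 1.16 TPM in pgEpiSC, with 0.0837 and 0.163 TPM in pEF. It rose by 1.45 ± 0.47 as deposited (limma, adjusted p = 0.0172) and by 1.22 ± 0.15 after scaling (adjusted p = 0.00029). As deposited the call was lost without pEF 1 (0.321) or pEF 2 (0.216), and after scaling it was kept in all 6 fits. ACTB, the actin monomer that is also a subunit, fell by 1.30 ± 0.50 as deposited (limma, adjusted p = 0.0449) and fell by 1.95 ± 0.43 after scaling (adjusted p = 0.00518). The ACTB call as deposited was lost without pgEpiSC 1, pgEpiSC 4 or pEF 2 (adjusted p from 0.103 to 0.398), and after scaling without pEF 2 (0.0535). ACTB protein also builds the cytoskeleton, and the 2 uses cannot be told apart in these data.

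The BCL7 proteins are small accessory subunits with 3 paralogs, and the balance of BCL7A against the other 2 did not overlap between the groups. BCL7A was at 1.26, 4.09, 3.50 and 1.55 TPM in pgEpiSC, with 0.232 and 0.940 TPM in pEF, while BCL7B was at 0.642, 1.57, 0.873 and 0.679 TPM against 1.25 and 1.75 TPM. The BCL7A share of that pair was 72.0 ± 5.89% in pgEpiSC and 15.6 and 35.0% in pEF, a difference in log2 ratio of 2.72 (exact permutation p = 0.0667, adjusted over 7 pairs p = 0.156). BCL7C was the most abundant of the 3 in every library, at 7.38 to 22.3 TPM in pgEpiSC and 11.4 and 19.4 TPM in pEF. The log2 ratio of BCL7A to BCL7C was 2.32 higher in pgEpiSC (exact permutation p = 0.0667, adjusted p = 0.156), and that of BCL7B to BCL7C differed by -0.40 with overlapping groups (exact permutation p = 0.20). After scaling BCL7A rose by 0.84 ± 0.17 (limma, adjusted p = 0.00307), BCL7B fell by 0.77 ± 0.15 (adjusted p = 0.00248) and BCL7C fell by 0.88 ± 0.21 (adjusted p = 0.0079). None of the 3 passed as deposited, and the scaled BCL7C call was lost without pEF 2 (0.0545).

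Among the other 4 pairs, SS18, the subunit fused in synovial sarcoma, held 94.1 ± 1.39% of its pair with SS18L1 in pgEpiSC and 96.0 ± 0.0128% in pEF, with overlapping log2 ratios (exact permutation p = 0.20). DPF2, a PHD-finger subunit, held 89.5 ± 2.49% against DPF1 in pgEpiSC and 96.6 ± 1.75% in pEF. The DPF2 to DPF1 log2 ratio differed by -0.77 (exact permutation p = 0.0667, adjusted p = 0.156), and its sign turned when 1 TPM was added instead of 0.1, to 0.23. DPF1, DPF3, BICRA and BICRAL had group means under 1 TPM in both cell types, and ratios with them rest on low levels. With 0.1 TPM added, the log2 ratios of DPF2 to DPF3 ran from 3.92 to 5.50 in pgEpiSC against 3.72 and 3.81 in pEF. They did not overlap, with a difference of 0.69 between the group means (exact permutation p = 0.267). The DPF2 share of that pair, to which nothing is added, did overlap. It was 95.4 to 98.8% in pgEpiSC and 98.7 and 96.0% in pEF (exact permutation p = 0.933). The log2 ratios of BICRA to BICRAL overlapped (exact permutation p = 0.733).

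Of the subunits that mark the 3 forms of the complex, ARID1A and ARID1B are given above, and none of ARID2, PBRM1 and BRD9 was called as deposited. ARID2, of PBAF, was at 3.19, 6.85, 6.91 and 2.91 TPM in pgEpiSC, with 1.44 and 2.52 TPM in pEF. It had a log2 difference of 0.95 ± 0.57 as deposited (limma, adjusted p = 0.213) and of 0.47 ± 0.17 after scaling (adjusted p = 0.0397), a call kept in 1 of 6 fits that left out a library, the one without pgEpiSC 2. ARID2 made up 51.4 ± 8.29% of the summed ARID1A, ARID1B and ARID2 in pgEpiSC and 45.4 ± 6.48% in pEF, with overlap (exact permutation p = 0.533; chosen after seeing the data). PBRM1 and BRD9 were called on neither scale, and their direction depends on it: PBRM1 differed by 0.38 as deposited and -0.16 after scaling, and BRD9 by 0.08 and -0.46. Without pgEpiSC 2, BRD9 was called lower after scaling, at -0.54 (limma, adjusted p = 0.0173). For each TPM of SMARCB1, BRD9 was at 0.892 ± 0.075 in pgEpiSC and 1.65 ± 0.06 in pEF, and PBRM1 at 1.03 ± 0.121 and 1.46 ± 0.00805, both without overlap. BRD7 and PHF10, of PBAF, DPF2, SMARCE1 and SS18 passed on neither scale, with scaled log2 differences of 0.38, 0.39, 0.27, 0.40 and 0.46. SS18L1, the SS18 paralog of neuronal complexes, passed after scaling, at 0.47 ± 0.12 (limma, adjusted p = 0.0119). That call was lost without pEF 1 (log2 difference 0.47) or pEF 2 (0.46). Only pgEpiSC 2 and pgEpiSC 3 reached 1 TPM, so without either of them SS18L1 failed the filter and was not tested. The call was thus kept in 2 of the 4 fits that could be made.

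**Figure D4:**
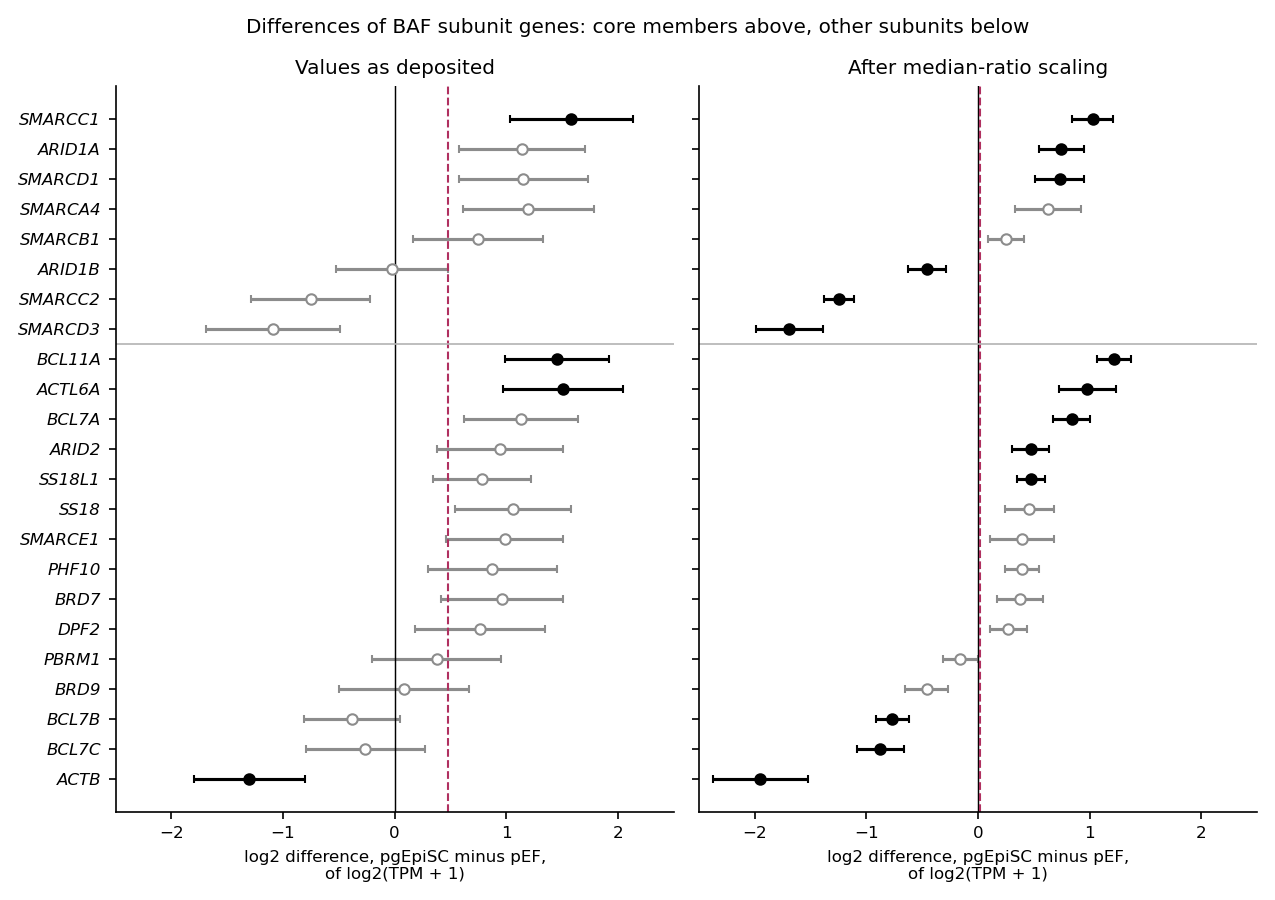
Difference of group means of log2(TPM + 1), pgEpiSC minus pEF, for the 8 members (above the grey line) and 15 other subunits (below it), as deposited (left) and after median-ratio scaling (right); bars are ± 1 SE, filled points passed the test at an adjusted p under 0.05, and the dashed line is the median of all 10424 tested genes. As deposited 4 genes passed (SMARCC1, BCL11A, ACTL6A, ACTB), and after scaling 14 did.

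Other families of ATP-dependent remodellers are given beside these counts, with the same background of 18.0% of all genes called higher and 9.43% lower as deposited, 27.0 and 30.9% after scaling, and a median log2 difference of 0.48 as deposited. Of 10 tested ISWI genes, which space nucleosomes, 1 was called higher and 0 lower as deposited (3 and 2 after scaling), with a median log2 difference of 0.91; the called gene was CECR2, at 2.94 ± 0.60 (limma). Of 16 tested CHD and NuRD genes, 4 were higher (MTA3, HDAC2, CHD7 and GATAD2A, from 2.87 to 1.61) and 1 lower (CHD3, -1.53), with a median of 0.87; after scaling 6 were higher and 2 lower. Of 21 tested INO80, SRCAP and TIP60 genes, 2 were higher (RUVBL1, 1.85, and UCHL5, 1.37) and 0 lower, with a median of 0.61; after scaling 5 were higher and 2 lower. Among these calls as deposited, those of CECR2 and MTA3 held in all 6 fits that left out a library, while those of the other 6 were all lost without pEF 1. CECR2 and CHD7 lay under 1 TPM in both pEF libraries and passed the filter only through pgEpiSC libraries. The ATPases SMARCA5 of ISWI (0.98), CHD4 of NuRD (1.12), INO80 (0.72), SRCAP (0.53) and EP400 (0.72) did not pass as deposited. Nor did the further CHD ATPases CHD1 (1.27), CHD2 (0.43), CHD6 (0.72), CHD8 (1.16) and CHD9 (0.79). After scaling CHD1 was called higher, at 0.72 (limma, adjusted p = 0.0271), and so was CHD8, at 0.61 (0.0347). The scaled CHD1 call was lost without pgEpiSC 1 (0.0646) or pgEpiSC 4 (0.0609). The other ATPases named in these 2 lists of uncalled genes passed on neither scale. The members' median of 0.94 lies beside those of these families, and no test of that difference was made.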

How the data were processed

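Strand-specific, rRNA-depleted libraries of 4 pgEpiSC and 2 pEF samples were sequenced per the labels' protocols. The submitters' processing notes name kallisto 0.44.0 and STAR 2.6.0c; what each did, and which genome build and annotation were used, is not given in the sources used here. As deposited by the authors, values are TPM, with 1 column per library and 20132 rows. Symbols came from the gene name table (14062 rows, 69.8%); 2 rows that shared a symbol were summed.

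Genes with at least 1 TPM in at least 2 libraries (10424) were fitted as log2(TPM + 1) in limma 3.58.1 (R 4.3.3) with a trended empirical Bayes variance, as deposited and after median-ratio scaling. Calls were made where p adjusted by Benjamini-Hochberg over all of them was below 0.05. A gene that reached 1 TPM only in libraries of 1 group passed the filter through that group, so its call is not independent of the filter. A fold on this scale understates the change of low genes. Paralog ratios used a pseudocount of 0.1 and exact two-sided permutation over 15 splits. Tables and plots used matplotlib 3.10.9, scipy 1.17.1, numpy 2.4.6 and pandas 2.3.3 in Python 3.11.15, and the fit was tested on simulated data. At a simulated log2 change of 1 it recovered 0 of 25 rises and 0 of 25 falls as deposited. After scaling it recovered 12 of 25 each way. A true change of that size can thus go uncalled, above all as deposited. Members and lists were chosen with earlier results of these data known. The text names every member, every other subunit that passed the filter, the tested ATPases and up to 4 members called as deposited, by fold, of each other remodeller list, and the leading markers. Same-numbered libraries were not treated as pairs: only 2 numbers are shared, and their deviations correlated at 0.067 and 0.113. Alternatives were other pseudocounts, filters, scalings and variance models, a replicate block and each library left out.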

Additional observations from a re-analysis of the deposited data

Results flagged for a closer look

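Among 19 per-library quantities checked in the 4 pgEpiSC libraries, 3 had a library farther from the others than Dixon's 95% limit for 4 samples; chance flags about 1 in 20. SMARCA4 after median-ratio scaling was at 17.6 TPM in pgEpiSC 2, where the other 3 lay between 9.05 and 10.3 TPM. SMARCD3 after scaling was at 4.73 TPM in the same library and between 1.80 and 2.19 TPM in the other 3. SMARCC1 after scaling was at 10.8 TPM in pgEpiSC 3 and between 12.5 and 12.7 TPM in the other 3.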

How the results depend on the processing

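For values as deposited, 1874 genes were called higher and 983 lower. Higher calls were 967 with a pseudocount of 5, 787 with no filter, 1185 where the mean had to reach 5 TPM, 2812 after median-ratio scaling, 3676 after quantile normalization, and 360 to 2257 with 1 library left out. Lower calls were 368 with the mean filter, 3222 after median-ratio scaling, 2924 rescaled to 1000000, 2726 after quantile normalization, and 194 to 1425 with 1 library left out. After median-ratio scaling, leaving out a library gave 1685 to 2562 higher and 2142 to 3225 lower. Among the members the 1 higher call became 0 with a pseudocount of 5 or no filter, 3 after median-ratio scaling, 4 after quantile normalization and 0 to 2 with 1 library left out. The 0 lower calls became 3 after median-ratio scaling, 2 when rescaled or quantile normalized, and 0 to 1 with 1 library left out. The 3 higher calls after scaling were 1 to 3 with 1 library left out. Among the other subunits the 2 higher calls became 0 with a pseudocount of 5 or no filter, 1 with the mean filter, 5 after median-ratio scaling, 10 after quantile normalization and 0 to 2 with 1 library left out. Their 1 lower call became 0 with a pseudocount of 5, no filter, the mean filter, no variance trend, or pgEpiSC 1 and 4 averaged, 3 under each of the 3 other scalings, and 0 to 1 with 1 library left out. After scaling, leaving out a library gave 2 to 4 of them higher and 1 to 4 lower. With the replicate block 3 members were called higher as deposited (SMARCA4, SMARCC1 and SMARCD1). After scaling it gave 4 members higher, with SMARCA4 added at 0.85 (limma, adjusted p = 0.0398), and 2 lower, without ARID1B (0.119). It gave 3 other subunits higher after scaling. The replicate numbers do not pair the samples. SMARCC1 was higher, and SMARCC2 and SMARCD3 lower, under median-ratio scaling, rescaling and quantile normalization alike.

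The uncalled difference of ARID1B (-0.03 as deposited) became 0.035 with the replicate block, 0.142 with pgEpiSC 1 and 4 averaged, and -0.43 to 0.37 with 1 library left out. PBRM1 (0.38) became -0.16 after median-ratio scaling, -0.34 rescaled, and -0.022 to 0.78 with 1 library left out. BRD9 (0.08) became -0.46, -0.70 and, quantile normalized, -0.21, and -0.35 to 0.52 with 1 library left out. BCL7C (-0.26) ran from -0.62 to 0.10. A ratio pseudocount of 1 gave differences of 2.34 for SMARCC1 to SMARCC2, 2.24 for SMARCD1 to SMARCD3 and 1.17 for ARID1A to ARID1B, all smaller in size and with the same sign. It turned the sign of DPF2 to DPF1 (0.23), SS18 to SS18L1 (0.28) and BICRA to BICRAL (-0.058; -0.10 to 0.28 with 1 library left out). With 1 library left out the share difference of DPF2 against DPF3 ran from -1.0 to 1.68 percentage points and that of BICRA against BICRAL from -0.80 to 14.8. The 3 member pairs kept their sign with each library left out, with share differences of 34.1 to 36.4, 40.7 to 45.7 and 30.4 to 32.9 percentage points. The cause was not tested for any of these changes. Depth is unknown, so no value carries an interval for read sampling.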

Other observations

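DPF2, a PHD-finger subunit, tracked SMARCB1 across both cell types: it was at 0.992, 0.992, 0.934 and 0.966 TPM for each TPM of SMARCB1 in pgEpiSC and at 0.929 and 0.966 in pEF. This was noticed in the data and is a description of 6 libraries.

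Outside the BAF family, the paralog pair CHD3 and CHD4, the ATPases of NuRD, also stood apart. CHD3 was at 0.872, 3.18, 2.02 and 0.848 TPM in pgEpiSC, with 4.55 and 8.98 TPM in pEF, and its share of the pair was 6.11 ± 0.456% (SD, n = 4) against 39.2 ± 0.526% (SD, n = 2). The exact two-sided permutation p was 0.0667, the smallest that 15 splits can give, and the pair was chosen after its values were seen. CHD3 fell by 1.53 ± 0.56 on the log2 scale as deposited (limma, adjusted p = 0.038) and fell by 2.09 ± 0.15 after scaling (adjusted p = 1.28e-05). The call as deposited was lost without pgEpiSC 1, 3 or 4 or either pEF library (adjusted p from 0.0777 to 0.407).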
